A study of Mus musculus with 6 samples.

Results

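The 10 genes described here tell apart the states that tissue macrophages and the monocytes that replace them can take. They are *Ccr2*, *Ly6c2*, *Cx3cr1*, *Mrc1*, *Cd163*, *Trem2*, *Gpnmb*, *Folr2*, *Lyve1* and *Arg1*, and they were picked by symbol out of the 55367 gene symbols that each library holds. DBA-positive cells were isolated from the kidneys of WT mice given saline, ADPKD mice (Pkd1-/-) given saline and ADPKD mice given MMPP, at the time point labelled Day115, and their RNA was sequenced with 2 libraries in each of the 3 groups. DBA, Dolichos biflorus agglutinin, is a plant lectin that binds collecting duct epithelium, and MMPP is a manganese-chelated, melanin-like nanoparticle with polyethylene glycol that was injected intravenously as an antioxidant. The ADPKD mice were male Pkd1 fl/fl;Cre/Esr1+ animals whose *Pkd1* was deleted with tamoxifen, and neither the cells in which this Cre acts nor whether the WT mice carried it or received tamoxifen is given in the sources used here. The labels name tubular epithelial cells, and one line of the protocol speaks of RNA from whole kidney. They do not say whether the 2 libraries of a group came from separate animals, so p-values measure only the spread between these samples, which may be technical.

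Macrophages settle in the kidney before birth and maintain themselves, and blood monocytes add to them when the tissue is injured. Monocytes that enter carry the chemokine receptor CCR2 and the surface protein Ly6C, while long-settled cells tend to carry scavenger and uptake receptors such as CD206 (*Mrc1*), CD163, LYVE1 and the folate receptor FOLR2. In damaged tissue and in cystic kidneys, macrophages can take up lipid and debris and then express *Trem2* and *Gpnmb*, or they can express *Arg1* in an alternatively activated state that is known for supporting epithelial growth.

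*Trem2* and *Gpnmb* were above every WT value in each ADPKD library, by 16.2 and 42.9 times in the means. *Mrc1*, the most abundant of the 10 genes in every group, and *Ly6c2*, which was below the filter for testing, were lower by 1.78 and 4.82 times. In ADPKD+MMPP *Trem2* was called lower than in ADPKD, and *Mrc1* was called lower only after centring by transcript structure, which compares genes with a like share of exon bases unique to 1 transcript.

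The stretches of DNA just before the start of these genes are shown because 3 of them changed by the test and 1 fell in the fit without a filter. They are the 250 bases before the RefSeq start on GRCm38.p6, on the strand of the gene and 5′ to 3′. Capitals mark GAGGAA, the core letters bound by PU.1, the macrophage lineage factor encoded by *Spi1*, or its complement TTCCTC, and the E-box CATGTG or its complement CACATG, which factors of the MITF family can bind.
*Mrc1*, chr2:14229164-14229413, plus strand: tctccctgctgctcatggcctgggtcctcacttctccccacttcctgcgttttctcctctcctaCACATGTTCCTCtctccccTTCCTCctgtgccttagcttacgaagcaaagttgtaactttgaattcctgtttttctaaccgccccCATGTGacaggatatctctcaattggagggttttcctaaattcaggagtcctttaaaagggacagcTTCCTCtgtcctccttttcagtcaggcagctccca
*Trem2*, chr17:48346151-48346400, plus strand: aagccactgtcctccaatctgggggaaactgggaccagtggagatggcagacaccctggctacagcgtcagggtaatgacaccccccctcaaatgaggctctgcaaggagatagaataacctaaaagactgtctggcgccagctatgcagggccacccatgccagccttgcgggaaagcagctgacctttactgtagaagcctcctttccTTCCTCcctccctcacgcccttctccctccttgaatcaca
*Gpnmb*, chr6:49036268-49036517, plus strand: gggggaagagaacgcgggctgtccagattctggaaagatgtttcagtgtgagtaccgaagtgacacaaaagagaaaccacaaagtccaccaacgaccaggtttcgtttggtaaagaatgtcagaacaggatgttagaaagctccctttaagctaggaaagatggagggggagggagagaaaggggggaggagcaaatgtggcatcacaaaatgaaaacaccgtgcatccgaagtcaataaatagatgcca
*Ly6c2*, chr15:75111972-75112221, minus strand: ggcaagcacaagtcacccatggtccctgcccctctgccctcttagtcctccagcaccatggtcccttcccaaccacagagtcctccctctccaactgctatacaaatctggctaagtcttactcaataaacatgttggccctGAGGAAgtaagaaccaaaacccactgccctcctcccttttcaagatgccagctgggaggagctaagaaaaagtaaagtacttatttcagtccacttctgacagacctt
Counted from 0 at the RefSeq start, *Mrc1* held the PU.1 letters from -180 to -175, from -167 to -162 and from -35 to -30, all on the other strand, with 1 E-box directly before the first of them and 1 from -101 to -96. *Trem2* held the PU.1 letters once, from -40 to -35, on the other strand. *Ly6c2* has 2 RefSeq entries, of which the first is printed, and held them there on its own strand from -108 to -103. Counted from the start of its second entry, they lay from -142 to -137 and from -8 to -3. The window of *Gpnmb* held neither set of letters. Over windows that also include the first 50 transcribed bases, the PU.1 letters lay in 3 of the 8 genes with a RefSeq promoter entry and in 28.3% of 32851 promoters of all genes. The E-box CATGTG lay in *Mrc1* and *Folr2*, 2 of the 8 genes, and in 14.2% of all promoters. The E-box CACGTG, found in 7.15% of all promoters, and the full cyclic AMP response element TGACGTCA, found in 1.79%, were in none of the 8. The shorter form TGACG lay in *Trem2*, from -185 to -181 on the other strand, and in 20.8% of all promoters. These are matches of letters within this window and not measured binding sites.

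The values are FPKM, the fragments counted on a gene relative to the length of the gene and the size of the library, so that levels may be set side by side between genes. Low values fell near whole read numbers once multiplied by exon length. This gave a depth of 30.6 M and 31.0 M reads in WT and 33.1 M and 32.1 M in ADPKD. For ADPKD+MMPP it gave 11.8 M and 10.9 M. The ADPKD+MMPP libraries stood apart, since 8.12% and 7.70% of their low read numbers were odd against 37.1% to 38.8% in the other 4. Among 20 macrophage genes described below, those with under 50% of exon bases in exactly 1 annotated transcript were mostly lower in them than in ADPKD. Both libraries are from the treated group, so the treatment and the way the reads were counted cannot be told apart. Most of their low read numbers were even. Their depth, their read numbers and any floor set in reads may therefore not share a unit with the other 4. ADPKD 2 stood apart from ADPKD 1 by a lower sum of 11 collecting duct markers, 912 FPKM against 2360 FPKM, and a higher sum of 4 neutrophil markers, 13.2 FPKM against 1.66 FPKM. *Pkd1*, the deleted gene, read 17.7 and 17.2 FPKM in WT, 7.64 and 8.91 FPKM in ADPKD, and 4.34 and 3.99 FPKM in ADPKD+MMPP. The collecting duct markers were present in all 6 libraries, *Aqp2* at 677 to 3555 FPKM, but *Avpr2*, the vasopressin receptor of these cells, was at or below 0.0587 FPKM. *Pecam1*, of blood endothelium, reached 146 and 126 FPKM in WT, so the libraries hold RNA of cells other than collecting duct.

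Genes that macrophages share were read as a list of 20, and the part of other cells in their levels was not tested. All 20 were tested in ADPKD against WT, and 18 were called higher and 1, *Mertk*, lower, with *Cd53* not called. Here and below a gene was tested if it had at least 1 FPKM in at least 2 libraries, and called where limma gave an unadjusted P under 0.05 with a fold of 1.5 or more on FPKM + 1. Among all 14862 tested genes, 14.2% were called higher and 12.5% lower in this comparison. *Lyz2*, the lysozyme of myeloid cells, read 7.63 and 8.69 FPKM in WT and 188 and 224 FPKM in ADPKD. *C1qb*, a chain of complement C1q, read 11.96 and 9.68 FPKM in WT and 101 and 126 FPKM in ADPKD. *Cd14*, the lipopolysaccharide co-receptor, read 42.4 and 29.4 FPKM in WT and 95.1 and 174 FPKM in ADPKD. The sum of the 20 genes was 220 and 219 FPKM in WT and 824 and 1080 FPKM in ADPKD. In such bulk samples more cells of a type and more RNA per cell cannot be told apart. Of the 10 state genes, 4 reached 1 FPKM in at least 2 libraries, namely *Mrc1*, *Trem2*, *Gpnmb* and *Arg1*, and the other 6 not tested in the main fit. *Trem2*, *Gpnmb* and *Arg1* passed this filter only through libraries in which they are high. The number of calls among the 4 is therefore a description. Where an adjusted p of theirs is given, that of a fit without the filter is given beside it.

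**Figure D1:**
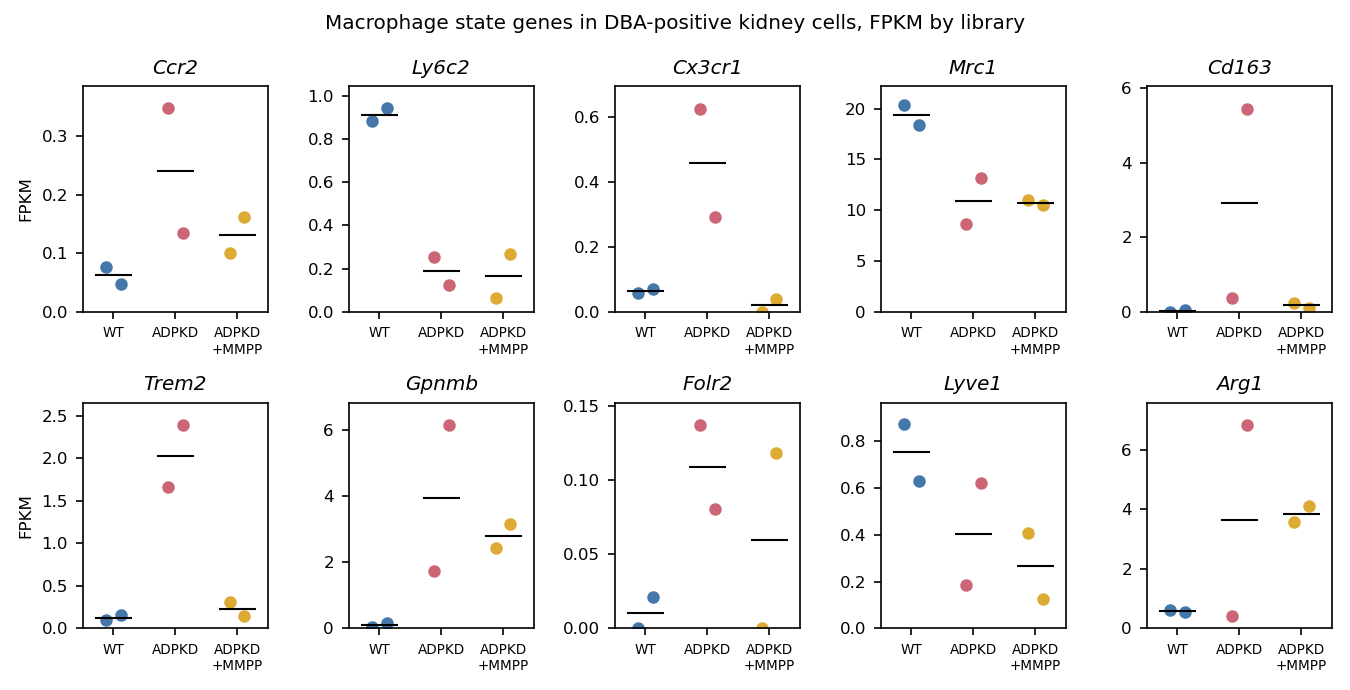
FPKM of the 10 macrophage state genes (vertical axes, each from 0 and on its own scale) in WT, ADPKD and ADPKD+MMPP, with 1 point for each library (replicate 1 left, replicate 2 right) and a line at the mean of 2. *Trem2* is at 1.66 and 2.39 FPKM in ADPKD and under 0.31 FPKM in the other 4 libraries, and the point of ADPKD 2 lies far above ADPKD 1 for *Cd163* and *Arg1*.

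The libraries of ADPKD and WT did not overlap for 9 of the 10 state genes. In ADPKD, *Ccr2*, *Cx3cr1*, *Cd163*, *Trem2*, *Gpnmb* and *Folr2* were higher in both libraries, 6 of 10 genes, and *Ly6c2*, *Mrc1* and *Lyve1* were lower in both, 3 of 10. Over the 31205 genes above 0 in at least 1 library the same pattern held for 25.1% in the higher and 24.4% in the lower direction. The test called *Trem2* and *Gpnmb* higher and *Mrc1* lower in ADPKD, and it did not call *Arg1*. With 2 libraries a group, an exact two-sided permutation test of a single gene cannot go below p = 0.333, so no such test is given.

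*Trem2* encodes the lipid-sensing receptor of phagocytes and lies on chromosome 17 from 48346401 to 48354147 on the plus strand. It read 0.0926 and 0.157 FPKM in WT, from 14 and 24 reads, and 1.66 and 2.39 FPKM in ADPKD, from 271 and 379 reads. The mean was 0.125 ± 0.0454 FPKM in WT and 2.02 ± 0.519 FPKM in ADPKD (SD, n = 2), a ratio of 16.2. Both ADPKD libraries were far above both WT libraries. On log2(FPKM + 1), which understates the change of genes this low, the difference was 1.42 with a standard error of 0.16 and a Benjamini-Hochberg adjusted p of 0.00471 from limma over all tested genes. *Trem2* entered this fit only through the ADPKD libraries, and in the fit without a filter its adjusted p was 0.0169 from limma over 31205 genes. Leaving out ADPKD 2 gave 1.24 and leaving out ADPKD 1 gave 1.59, and both were called.

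*Gpnmb* encodes a lysosomal glycoprotein of cells that digest lipid and debris and lies on chromosome 6 from 49036546 to 49070929 on the plus strand. It read 0.0351 and 0.149 FPKM in WT, from 7 and 30 reads, and 1.75 and 6.14 FPKM in ADPKD, from 377 and 1283 reads. The 2 ADPKD libraries differed from each other by 3.51 times, and both were above the WT libraries. The mean was 0.0920 ± 0.0803 FPKM in WT and 3.95 ± 3.11 FPKM in ADPKD (SD, n = 2), a ratio of 42.9. The log2 difference was 2.02 with a standard error of 0.43 and an adjusted p of 0.0228 from limma, and 0.0796 in the fit without a filter. Without ADPKD 2 it was 1.33 and still called. *Gpnmb* is also made by pigment cells, and of their markers *Pmel* was between 0.33 and 1.03 FPKM in all libraries while *Tyr* was at 0 in all 6.

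The other genes of the lipid-handling state were looked at as a list of 6, all of them tested. In ADPKD 5 were called higher, *Spp1*, *Cd9*, *Fabp5*, *Lgals3* and *Cd63*, and 1 lower, *Lpl*, the lipoprotein lipase. The median log2 difference of the 6 was 1.04, beside 0.03 over all tested genes. *Spp1*, encoding osteopontin, read 291 and 284 FPKM in WT and 4875 and 3984 FPKM in ADPKD, and *Lgals3*, encoding galectin-3, read 169 and 225 FPKM in WT and 631 and 699 FPKM in ADPKD. Tubular epithelium is also known to make both of these proteins.

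*Mrc1* encodes the mannose receptor CD206 and lies on chromosome 2 from 14229392 to 14332057 on the plus strand. It read 20.4 and 18.4 FPKM in WT and 8.62 and 13.2 FPKM in ADPKD, and the lower WT library was above the higher ADPKD library. The mean was 19.4 ± 1.40 FPKM in WT and 10.9 ± 3.24 FPKM in ADPKD (SD, n = 2), so ADPKD was 1.78-fold lower. The log2 difference was -0.80 with a standard error of 0.20 and an adjusted p of 0.0373 from limma, and 0.0902 in the fit without a filter. The call was lost without ADPKD 1, where the difference was -0.52, and without WT 1, where it was -0.73 with an unadjusted P of 0.0528 from limma. Thus *Mrc1* went down where 18 of 20 shared macrophage genes went up. *Mrc1* is also known in endothelium, and 4 of 5 blood endothelial markers, *Pecam1*, *Cdh5*, *Kdr* and *Emcn*, were called lower in ADPKD while *Plvap* was called higher. Their sum was 784 and 641 FPKM in WT and 491 and 505 FPKM in ADPKD, with none of the 5 at 0, and their part in the fall of *Mrc1* was not tested. *Stab1*, a scavenger receptor shared by resident macrophages and endothelium, read 27.2 and 22.3 FPKM in WT and 17.0 and 20.02 FPKM in ADPKD and was not called. *Mrc2*, the close relative of *Mrc1* that fibroblasts use to take up collagen, read 19.6 and 21.3 FPKM in WT and 11.8 and 8.82 FPKM in ADPKD, a log2 difference of -0.94 that was called.

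*Cd163*, the haemoglobin scavenger receptor, lies on chromosome 6 from 124304656 to 124330527 on the plus strand. It read 0 and 0.0591 FPKM in WT, from 0 and 10 reads, and 0.371 and 5.44 FPKM in ADPKD, from 67 and 952 reads. The higher group was thus carried by ADPKD 2, which was 14.7 times ADPKD 1. In the fit without a filter the log2 difference was 1.53 with a standard error of 0.77 and an unadjusted P of 0.114 from limma, so it was not called. *Arg1*, the arginase of alternatively activated macrophages, lies on chromosome 10 from 24915221 to 24927484 on the minus strand and showed the same split. It read 0.631 and 0.536 FPKM in WT, and 0.421 FPKM in ADPKD 1 but 6.85 FPKM in ADPKD 2, which was 16.3 times ADPKD 1. One ADPKD library was below both WT libraries and the other above them, and the log2 difference of 1.08 with a standard error of 0.74 was not called. Without ADPKD 2 it was -0.16 and not called, and without ADPKD 1 it was 2.31 and called. The 2 genes were not alone in this, since *Chil3*, a chitinase-like protein of activated myeloid cells, read 0.0371 FPKM in ADPKD 1 and 1.76 FPKM in ADPKD 2, and *S100a8*, of neutrophils and monocytes, read 0.436 and 3.28 FPKM. These 2 genes were picked after their values were seen. All 4 neutrophil markers were above 0 in ADPKD 2, and 3 of them in ADPKD 1. Of these, *Ly6g* was alike in both, at 0.0662 FPKM in ADPKD 2 with an ADPKD mean of 0.0652 FPKM. The sum of the 20 shared macrophage genes in ADPKD 2 was 1.31 times that of ADPKD 1. The part of neutrophils and of macrophages in the level of *Cd163* and *Arg1* was not tested.

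The other genes of alternative activation gave little. Of the list of 5, *Il4ra* and *Mgl2* were tested, and *Il4ra*, the receptor chain for interleukin-4, was called lower in ADPKD while *Mgl2* was not called. *Il4ra* read 109 and 89.8 FPKM in WT and 46.8 and 54.7 FPKM in ADPKD. *Mgl2*, a galactose lectin, read 0.781 and 0.725 FPKM in WT and 6.15 FPKM in ADPKD 1 but 0.789 FPKM in ADPKD 2, so it was high in the ADPKD library in which *Arg1* was low. *Retnla* stayed at or below 0.21 FPKM in all 6 libraries. Of 5 genes of classical activation 3 were called higher in ADPKD, *Il1b*, *Tnf* and *Il6*, and *Nos2* and *Ptgs2* were not called. *Il6* had an adjusted p of 0.0745 from limma. *Tnf* read 15.0 and 9.76 FPKM in WT and 84.4 and 89.0 FPKM in ADPKD. The median log2 difference of these 5 was 1.21.

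**Figure D2:**
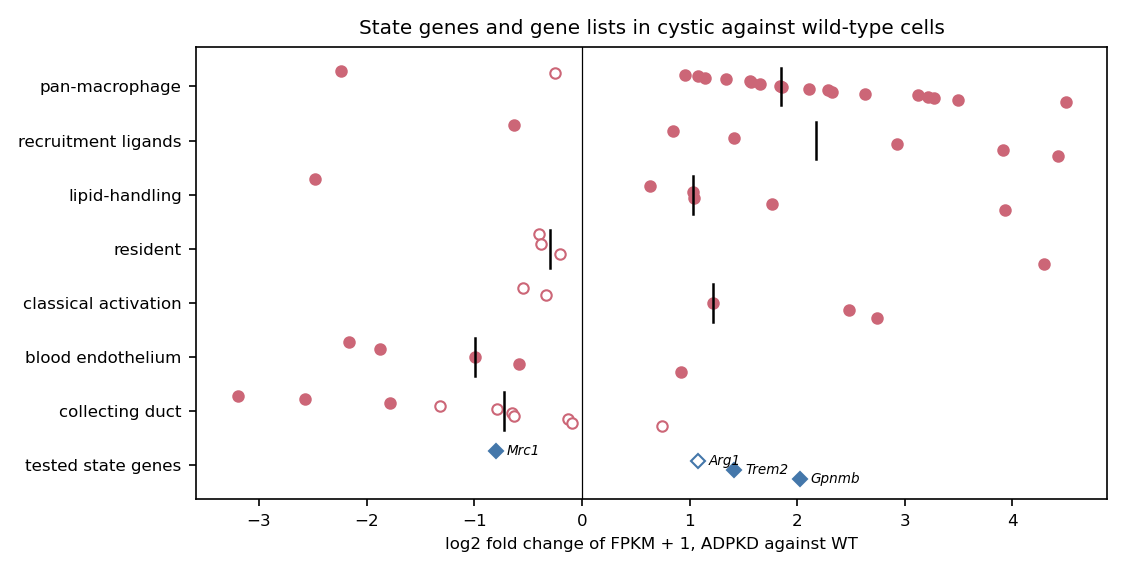
Log2 fold change of FPKM + 1 in ADPKD against WT (horizontal axis) for the tested genes of 7 lists and for the 4 tested state genes, with 1 point for each gene, filled where it was called, and a black line at the median of each list. Of the pan-macrophage genes 18 of 20 are filled on the right, while *Mrc1* lies on the left at -0.80.

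The genes of monocyte entry were low in all libraries. *Ccr2*, the receptor that draws monocytes out of blood and marrow, lies on chromosome 9 from 124101950 to 124113557 on the plus strand. It read 0.0774 and 0.0478 FPKM in WT, from 16 and 10 reads, and 0.349 and 0.134 FPKM in ADPKD, from 78 and 29 reads. Both ADPKD libraries were above WT, with a ratio of means of 3.86, but all 6 values were below 0.35 FPKM and the fit without a filter gave a log2 difference of 0.22 with an unadjusted P of 0.0916 from limma. *Cx3cr1*, the fractalkine receptor that kidney macrophages and patrolling monocytes carry, lies on chromosome 9 from 119901616 to 120069879 on the minus strand. It read 0.0581 and 0.0717 FPKM in WT, from 8 and 10 reads, and 0.624 and 0.291 FPKM in ADPKD, from 93 and 42 reads. The ratio of means was 7.05, and the log2 difference of 0.44 in the fit without a filter, with an unadjusted P of 0.0207 from limma, was below the fold of 1.5 on FPKM + 1.

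*Ly6c2*, the marker of classical monocytes, lies on chromosome 15 from 75108158 to 75111970 on the minus strand. It read 0.883 and 0.943 FPKM in WT, from 74 and 80 reads, and 0.254 and 0.125 FPKM in ADPKD, from 23 and 11 reads. Both ADPKD libraries were below WT, by 4.82 times in the means, and in the fit without a filter the log2 difference was -0.69 with an adjusted p of 0.0364 from limma over 31205 genes, which passed the thresholds. Its near-identical neighbour *Ly6c1*, made by endothelium, was at 347 and 371 FPKM in WT and 134 and 144 FPKM in ADPKD. It was 393 times *Ly6c2* in each WT library and 528 and 1146 times in ADPKD, and it too was called lower in ADPKD. Reads of such near copies can be counted on the wrong one of the 2, so the level of *Ly6c2* is uncertain, and the part of *Ly6c1* reads in it was not tested.

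Of 6 further monocyte genes only *Plac8* was tested and it was called higher in ADPKD, at 6.39 and 4.54 FPKM in WT and 40.6 and 59.2 FPKM in ADPKD. *F13a1*, the clotting factor XIII chain of monocytes, read 0.00971 and 0.0575 FPKM in WT and 0.610 and 2.54 FPKM in ADPKD. *Itgal*, an integrin chain of leukocytes, stayed below 0.44 FPKM throughout. Chemokines and growth factors that act on monocytes and macrophages were far more abundant than *Ccr2* and *Cx3cr1*. Of 6 such ligands 5 were called higher in ADPKD, *Ccl2*, *Ccl7*, *Ccl12*, *Csf1* and *Il34*, and 1 lower, *Cx3cl1*, the ligand of CX3CR1. *Ccl2*, the main ligand of CCR2, read 5.49 and 6.47 FPKM in WT and 85.1 and 127 FPKM in ADPKD, with a log2 difference of 3.91. *Cx3cl1* read 133 and 96.2 FPKM in WT and 82.2 and 64.3 FPKM in ADPKD, a log2 difference of -0.63 with an adjusted p of 0.0713 from limma. The median log2 difference of the 6 ligands was 2.17.

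The remaining markers of settled macrophages were *Lyve1* and *Folr2*. *Lyve1*, a hyaluronan receptor, lies on chromosome 7 from 110850607 to 110863239 on the minus strand and read 0.874 and 0.631 FPKM in WT and 0.186 and 0.620 FPKM in ADPKD. The nearest libraries of the 2 groups, WT 2 and ADPKD 2, differed by 1 read, 57 against 58, with the deeper library giving the lower FPKM, and the fit without a filter gave an unadjusted P of 0.176 from limma. *Lyve1* is also known in lymphatic vessels, of whose 5 markers 4 were tested and 1, *Pdpn*, was called higher in ADPKD. The sum of the 5 was 29.4 and 39.3 FPKM in WT and 66.4 and 73.8 FPKM in ADPKD, most of it from *Pdpn*, with *Ccl21a* at 0 in these 4 libraries. *Flt4*, the receptor for lymphatic growth factors, read 10.1 and 8.81 FPKM in WT and 7.84 and 8.12 FPKM in ADPKD and was not called, and the part of lymphatic cells in the level of *Lyve1* was not tested. *Folr2*, a folate receptor, lies on chromosome 7 from 101839988 to 101857194 on the minus strand and read 0 and 0.0209 FPKM in WT, from 0 and 1 read, and 0.137 and 0.0807 FPKM in ADPKD, from 7 and 4 reads. At this depth 3 reads equal 0.0587 to 0.0635 FPKM, so both WT libraries were under the floor and no fold is given. A share of 63.1% of the exon bases of *Folr2* overlaps *Gm10602* on the opposite strand, and whether the counting used strand is not given in the sources used here, so its reads are uncertain too. Of the 6 other resident genes, *Ccl8* was called higher in ADPKD and *Cbr2*, *Stab1* and *Maf* were not called, while *Timd4* and *Cd209f*, which mark long-settled cells, stayed at or below 0.17 FPKM and were not tested.

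The order of the 10 genes by level differed between WT and ADPKD. In WT *Mrc1*, at a mean of 19.4 FPKM, was followed by *Ly6c2* at 0.913 FPKM, *Lyve1* at 0.752 FPKM and *Arg1* at 0.584 FPKM, and the other 6 were at or below 0.125 FPKM. The libraries of *Lyve1* and *Arg1* overlapped in WT and those of *Ly6c2* and *Lyve1* did not. In ADPKD *Mrc1* at 10.9 FPKM was followed by *Gpnmb* at 3.95 FPKM, *Arg1* at 3.63 FPKM, *Cd163* at 2.90 FPKM and *Trem2* at 2.02 FPKM, and these last 4 overlapped in their libraries. *Mrc1* was above each of the other 9 in every library.

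The second comparison asks what MMPP did in ADPKD. No state gene lay wholly above and 3 of 10, *Cx3cr1*, *Cd163* and *Trem2*, had both of their ADPKD+MMPP values below both ADPKD values, beside 22.7% and 38.7% of all genes above 0. The test called *Trem2* lower and none higher, with *Mrc1*, *Gpnmb* and *Arg1* not called, beside 27.9% of all tested genes called higher and 43.0% called lower. The median log2 difference of all tested genes was itself -0.36. In this comparison the libraries with few odd read numbers stand against the others, so a change of a gene and a change in how its reads were counted cannot be told apart.

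*Trem2* read 0.308 and 0.148 FPKM in ADPKD+MMPP, from 18 and 8 reads, against 1.66 and 2.39 FPKM in ADPKD, and both treated libraries lay near the WT values of 0.0926 and 0.157 FPKM. The mean of 0.228 ± 0.113 FPKM (SD, n = 2) was 8.87-fold lower than in ADPKD. The log2 difference was -1.29 with a standard error of 0.16 and an adjusted p of 0.000742 from limma, and 0.00351 in the fit without a filter. The gene has 4 annotated transcripts and 78.8% of its exon bases lie in exactly 1 of them. When each library was centred among protein-coding genes of like share, the difference was -2.10 and was called. Against WT the difference was 0.12 and not called as deposited, but -0.70 and called lower after centring, and 0.60 and called higher with quantile normalization, so its place relative to WT depends on the scaling.

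*Cx3cr1* read 0 and 0.0407 FPKM in ADPKD+MMPP, from 0 and 2 reads, where 3 reads would give 0.0564 and 0.0610 FPKM, so both libraries were under the floor. ADPKD had 0.624 and 0.291 FPKM, and the fit without a filter gave a log2 difference of -0.51 with an unadjusted P of 0.0132 from limma, below the fold of 1.5 on FPKM + 1. Only 16.7% of the exon bases of *Cx3cr1* lie in exactly 1 transcript, the lowest share of the 10 genes. *Cd163* read 0.248 and 0.101 FPKM, from 16 and 6 reads, below the 0.371 and 5.44 FPKM of ADPKD, and its share was 18.6%. Its log2 difference of -1.34 in the fit without a filter had an unadjusted P of 0.153 from limma. For these 2 genes the effect of the counting was not tested.

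*Gpnmb* read 2.44 and 3.15 FPKM in ADPKD+MMPP, between the 1.75 and 6.14 FPKM of the 2 ADPKD libraries. The log2 difference was -0.23 with a standard error of 0.43. It was 0.46 without ADPKD 2 and not called, and -0.92 without ADPKD 1 and called, so the direction rests on which ADPKD library is used. *Gpnmb* and *Trem2*, which rose together in ADPKD, thus had different values after MMPP, although the difference between their changes was not tested. *Arg1* read 3.57 and 4.11 FPKM, between the 0.421 and 6.85 FPKM of ADPKD, and its log2 difference of 0.53 was not called. Without ADPKD 2 it was 1.77 and called higher, and without ADPKD 1 it was -0.70 and called lower. *Mrc1* read 10.98 and 10.5 FPKM, between the 8.62 and 13.2 FPKM of ADPKD, with a log2 difference of 0.00 and a standard error of 0.20. After centring by transcript structure it was -1.11 and called lower, and *Mrc1* has 2 transcripts and 83.2% of its exon bases in exactly 1.

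**Figure D3:**
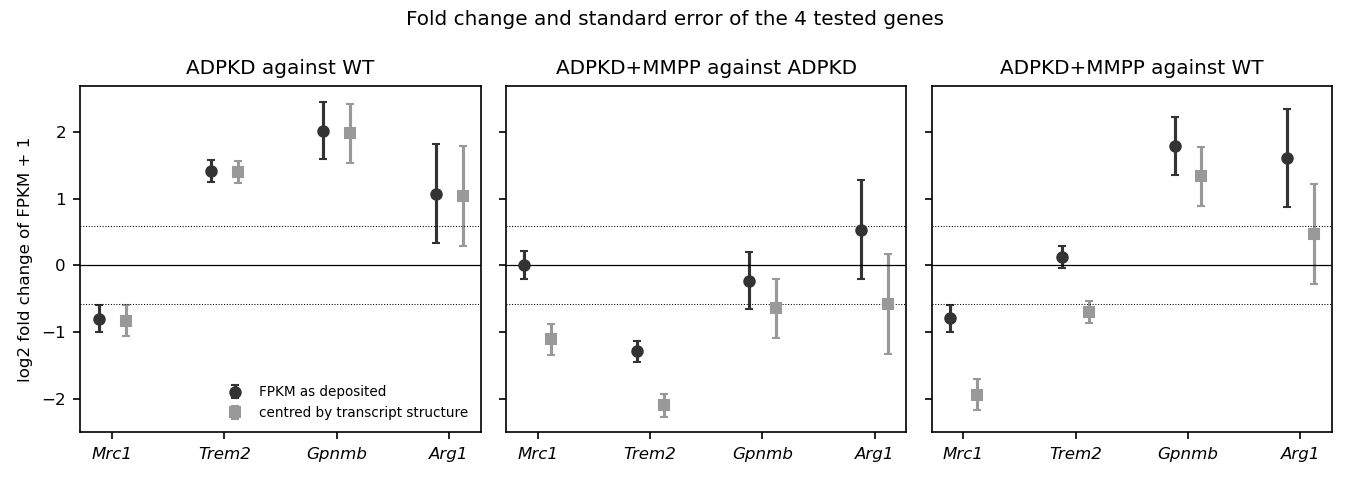
Log2 fold change of FPKM + 1 (vertical axis) with its standard error for the 4 tested state genes in the 3 comparisons, as deposited (circles) and after centring each library by transcript structure (squares), with dotted lines at a fold of 1.5. The circles and squares lie together in ADPKD against WT, and in both comparisons with ADPKD+MMPP the squares lie lower, for *Mrc1* at -1.11 against 0.00 in ADPKD+MMPP against ADPKD.

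The other low genes rested on few reads in ADPKD+MMPP. *Ccr2* read 0.1002 and 0.163 FPKM, from 8 and 12 reads, *Lyve1* read 0.406 and 0.126 FPKM, from 14 and 4 reads, and *Ly6c2* read 0.0618 and 0.268 FPKM, from 2 and 8 reads. Each overlapped its ADPKD values. *Folr2* read 0 and 0.119 FPKM, from 0 and 2 reads, both under the 3 reads of the floor. At this depth no difference from ADPKD was detectable for *Folr2*.

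Of the 20 shared macrophage genes 5 were called higher in ADPKD+MMPP than in ADPKD, *Fcgr1*, *C1qa*, *C1qb*, *C1qc* and *Lyz2*, and 10 lower, with a median log2 difference of -0.60. These are 25% and 50% of the list, near the 27.9% and 43.0% of all tested genes. Among the 7 genes with at least 70% of their exon bases in exactly 1 transcript, these 5 were higher and none lower, the bounds of 70% and 50% having been set after the values were seen. Among the 9 genes with under 50%, none was higher and 8 were lower. *Lyz2*, with 100% in 1 transcript, read 568 and 565 FPKM against 188 and 224 FPKM in ADPKD. *Tyrobp*, the signalling partner of the TREM2 protein, with 14.7%, read 5.08 and 7.15 FPKM against 33.1 and 38.2 FPKM. Over the 20 genes the change and the share had a Pearson r of 0.72 and a Spearman rho of 0.76, against 0.22 and 0.22 for the change in ADPKD against WT, as a description over genes of the same libraries. After centring, 4 of the 20 genes were called higher and 4 lower, with a median of 0.08, and none of the 5 above was among the 4 called higher, which were *Adgre1*, *Cd14*, *Cd68* and *Fcer1g*. As deposited, *Trem2* was at -1.29 with 4 transcripts and a share of 78.8%, and the list genes of nearest share differed in direction. *Fcgr1*, with 2 transcripts and 76.8%, was at 1.28, and *Spi1*, with 4 and 72.5%, was at 0.37. *Ms4a7*, with 5 transcripts and 69.6%, was at -1.28.

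**Figure D4:**
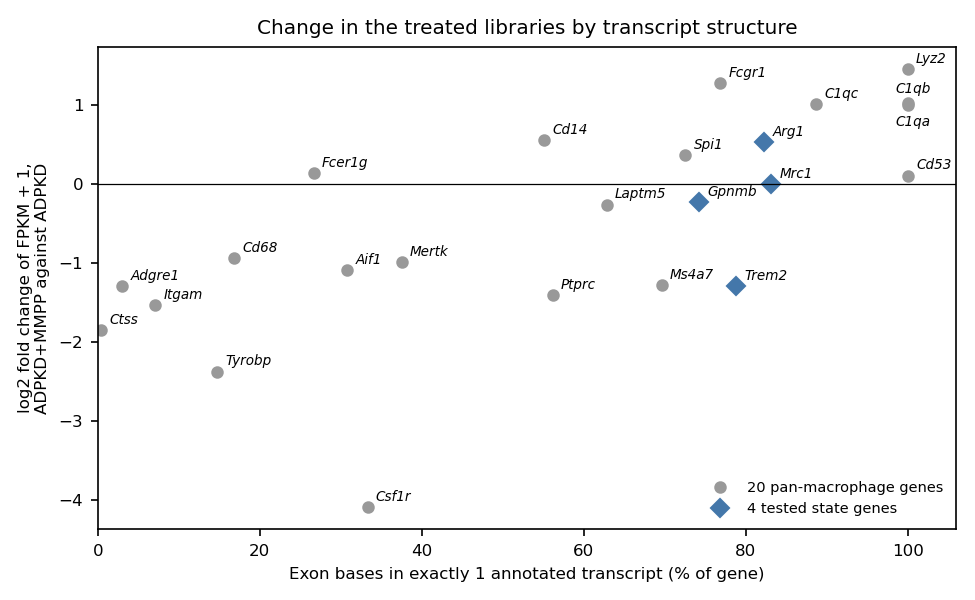
Log2 fold change of FPKM + 1 in ADPKD+MMPP against ADPKD (vertical axis) against the percent of exon bases of a gene that lie in exactly 1 annotated transcript (horizontal axis), for the 20 pan-macrophage genes (circles) and the 4 tested state genes (diamonds). Genes with a low share lie mostly below 0, and *Trem2* lies at -1.29 with a share of 78.8%.

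The ligands and the other state lists were read under the same limit. Of 6 ligands 3 were called lower in ADPKD+MMPP, *Ccl2*, *Ccl7* and *Csf1*, and none higher, beside 43.0% of all tested genes called lower. *Ccl2* read 33.0 and 37.7 FPKM, below ADPKD and above WT. After centring, *Ccl7* and *Csf1* were called lower and *Ccl12* and *Il34* higher. Of the 6 lipid-handling genes *Fabp5* and *Lpl* were called higher and *Spp1* and *Lgals3* lower, and after centring *Lpl* alone was called higher and *Cd63* alone lower. *Spp1* read 1197 and 1370 FPKM. *Plac8* read 59.9 and 49.1 FPKM and was not called, *Ccl8*, a chemokine of resident macrophages, read 51.7 and 38.0 FPKM against 21.5 and 18.2 FPKM in ADPKD and was called higher, and *Stab1* at 7.97 and 8.29 FPKM was called lower. Both of these calls were lost after centring. *Maf*, a transcription factor of resident macrophages, read 20.2 and 20.8 FPKM against 4.38 and 3.36 FPKM in ADPKD and was called higher with and without centring.

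Against WT, the ADPKD+MMPP libraries share their WT controls with the first comparison, so their values are given side by side and not as a second line of evidence. *Ccr2*, *Cd163*, *Gpnmb* and *Arg1* were higher in both treated libraries than in both WT libraries, 4 of 10 genes, and *Ly6c2*, *Cx3cr1*, *Mrc1* and *Lyve1* were lower, 4 of 10, beside 24.3% and 39.9% of all genes above 0. The test called *Gpnmb* higher and *Mrc1* lower, beside 30.1% and 43.8% of all tested genes. *Gpnmb* had a log2 difference of 1.79 with a standard error of 0.43, where ADPKD had 2.02. Its adjusted p was 0.0100 from limma, and 0.0465 in the fit without a filter. *Mrc1* had -0.80 with a standard error of 0.20 and an adjusted p of 0.0126 from limma, and 0.0395 in the fit without a filter. Its call was lost without WT 1, at -0.73, and with median of ratios scaling, at -0.56. *Arg1* was at 1.61 with a standard error of 0.74 and an adjusted p of 0.0907 from limma, and 0.230 in the fit without a filter. Both treated libraries were above 3.5 FPKM and both WT libraries below 0.64 FPKM. After centring, *Mrc1* was at -1.94 and called, *Gpnmb* was at 1.34 and called, and *Arg1* was at 0.47 and not called. The 5 blood endothelial markers summed to 308 and 339 FPKM in ADPKD+MMPP against 784 and 641 FPKM in WT. Of the 5, 4 were called lower and *Plvap* was called higher. Against ADPKD, 2 of them, *Pecam1* and *Emcn*, were called lower, where *Mrc1* was at 0.00. After centring, all 5 and *Mrc1* were called lower against ADPKD. Their part in the level of *Mrc1* was not tested.

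For each tested state gene the 3 tested genes with the most similar levels over the 6 libraries were found by Pearson's r on log2(FPKM + 1), as a description over points that share their groups. They were *Ppp1cb*, *Ints6* and *Zbtb16* for *Mrc1*, with r from 0.980 to 0.990. *Trem2* had *Nt5c2*, *Fndc1* and *Asns*, with r from 0.993 to 0.996, and *Fndc1* read 0.0597 and 0.0393 FPKM in WT, 2.83 and 4.46 FPKM in ADPKD, and 0.137 and 0.149 FPKM in ADPKD+MMPP. *Gpnmb* had *Rps12*, *Zfp809* and *Sec14l2*, with r from 0.994 to 0.998. *Arg1* had *Tigd5*, *Zbtb44* and *Rpl34-ps1*, with r from 0.987 to 0.991, and *Rpl34-ps1* is a pseudogene of a ribosomal protein whose reads can come from near copies.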

How the data were processed

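The authors aligned NovaSeq reads to GRCm38 with HISAT2 2.1.0, counted them on genes with featureCounts 1.6.0 and deposited FPKM for each library. The annotation release, the strand setting and the formula for FPKM are not given in the sources used here. Of the 55367 symbols, 53186 were found once in GENCODE vM21, the source of positions, exon lengths and transcripts. FPKM times length fell within 0.05 reads of a whole number for 98.3% to 99.0% of low values, which gave the depth, and 3 reads were taken as the floor. Genes with at least 1 FPKM in at least 2 libraries were tested with limma 3.58.1 in R 4.3.3 on log2(FPKM + 1), in 1 fit over the 6 libraries, without a count test since the values are not counts. Calls used the study's thresholds on the unadjusted P, and a Benjamini-Hochberg adjusted p is given for some genes. The centred alternative took protein-coding genes in 20 bins of exon bases unique to 1 transcript. The fit was tested on simulated data. Whether same-numbered libraries were prepared together is not given in the labels, and the main fit did not pair them. Named genes are the 10 state genes, abundant genes of marker lists, genes behind counts of 5 or fewer, relatives of the state genes and the 3 most similar genes. Some genes of these lists are not reported here. The genes and lists were chosen with earlier results of these data known. Promoter sequences are from RefSeq on GRCm38.p6, matched by symbol for 8 of the 10 genes and not for *Lyve1* and *Arg1*.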

Additional observations from a re-analysis of the deposited data

How the results depend on the processing

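Of 165 recomputed log2 differences of *Mrc1*, *Trem2*, *Gpnmb* and *Arg1*, 144 kept their direction and their side of the thresholds. In ADPKD against WT the number of state genes called higher was 2, and 1 with a mean FPKM of at least 1, which *Trem2* could not pass, and 2 to 3 when 1 library was left out. The number called lower was 1, and 2 without a filter, 0 at a fold of 2, and 0 to 1 when 1 library was left out. In ADPKD+MMPP against ADPKD the number called higher was 0, and 0 to 1 when 1 library was left out. The number called lower was 1, and 2 after centring by transcript structure, 0 with a mean FPKM of at least 1, and 1 to 3 when 1 library was left out. In ADPKD+MMPP against WT the number called higher was 1, and 2 with median of ratios scaling, 2 with only the 2 groups in the fit and 3 with quantile normalization. The number called lower was 1, and 2 after centring, 0 with median of ratios scaling, 2 without a filter, 0 at a fold of 2, and 0 to 1 when 1 library was left out.

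The direction turned for these values. In ADPKD+MMPP against ADPKD *Mrc1* was at -1.11 after centring, -0.28 at a common sum of FPKM, -0.28 without ADPKD replicate 1 (0.28 without ADPKD replicate 2) and -0.03 without ADPKD+MMPP replicate 1, and *Gpnmb* was at 0.41 with quantile normalization and 0.46 without ADPKD replicate 2, against -0.92 without ADPKD replicate 1. *Arg1* there was at -0.58 after centring and -0.70 without ADPKD replicate 1 (1.77 without ADPKD replicate 2), and in ADPKD against WT at -0.16 without ADPKD replicate 2 (2.31 without ADPKD replicate 1). *Trem2* in ADPKD+MMPP against WT was at -0.70 after centring. Apart from the library left out, the cause was not tested. The scalings moved the median log2 difference of all tested genes in ADPKD+MMPP against ADPKD from -0.36 as deposited to -0.55 at a common sum, 0.10 with quantile normalization and 0.15 after centring. With the replicate block the counts stayed at 2 higher and 1 lower in ADPKD against WT, and no other count moved. The deviations of same-numbered libraries correlated at 0.13, -0.01 and 0.01. For the 20 shared macrophage genes, chosen for this after seeing the data, the count called higher in ADPKD against WT was 18 whichever library was left out. At about 11 M reads, 3 reads of *Folr2* equal 0.164 to 0.178 FPKM in ADPKD+MMPP, so lower levels fell under the floor set here.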

Other observations

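Markers of other cell types moved as well. *Slc22a6*, an organic anion transporter of the proximal tubule, read 147 and 150 FPKM in ADPKD+MMPP against 4.27 and 0.251 FPKM in ADPKD. Of 6 proximal tubule markers 5 were called higher in ADPKD+MMPP than in ADPKD, *Slc34a1* being the exception, and 6 after centring by transcript structure. *Col1a1*, the fibrillar collagen of fibroblasts, read 0.364 and 0.389 FPKM in WT and 32.3 and 33.4 FPKM in ADPKD. In ADPKD+MMPP it read 61.6 and 70.1 FPKM. *Pdgfrb* read 91.3 and 65.6 FPKM in WT, 38.9 and 31.4 FPKM in ADPKD, and 1.05 and 0.837 FPKM in ADPKD+MMPP. Bases unique to 1 transcript made up 91.5% of *Col1a1* and 2.3% of *Pdgfrb*. In ADPKD+MMPP against ADPKD *Col1a1* was called higher, but not after centring. The other 3 of 4 fibroblast markers, *Dcn*, *Pdgfra* and *Pdgfrb*, were called lower there with and without centring. Markers of T cells summed to 0.316 to 2.58 FPKM over the 6 libraries and none was tested. *Arg2*, the mitochondrial relative of *Arg1*, read 4.88 and 3.57 FPKM in WT, 7.85 and 14.6 FPKM in ADPKD, and 24.9 and 25.3 FPKM in ADPKD+MMPP, and was called higher in each of the 3 comparisons, though in ADPKD+MMPP against ADPKD the call was lost after centring.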
